A study of Canis lupus familiaris and Eptesicus fuscus and Equus caballus with 6 samples.

Results

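The families described here are old interspersed repeats of mammals: the SINE family MIR and the LINE families L2, CR1 and RTE, measured in testis mRNA. In the dog and horse files a member was any repeat model filed as SINE/MIR, LINE/L2, LINE/CR1 or any LINE/RTE class, and in the bat file any row whose name starts with MIR. This gave 28 of 955 models in dog, 29 of 986 in horse and 2 of 511 in bat. Members were chosen by class and name, not by their level. All 28 dog members stood in the horse file under the same name and at the same length. The remaining horse member, RTE-1_EC, has no model of that name in the dog file. Its EC suffix also stands on models that both files hold, such as LTR10_EC, and so does not settle its age. Sums are therefore given with and without it.

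The study set dog (Canis lupus familiaris), horse (Equus caballus) and big brown bat (Eptesicus fuscus) side by side, as taxa with different activity of their transposable elements. Each species gave snap-frozen testes of adult stage, with no treatment named in the labels, and 1 mRNA library, so that the 3 groups used here differ in species alone by label. How many animals were pooled is not given in the sources used here. Without replicates no difference has a test, and intervals cover counting error only. The files hold repeat models and no genes, so the tissue could not be checked against testis marker genes.

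SINEs are short elements without proteins of their own, copied by the proteins of a partner LINE. MIR, the mammalian-wide interspersed repeat, has a tRNA-derived head and a tail shared with L2, the LINE thought to have moved it. L2, the CR1 relatives named L3, and the RTE families L4 and L5 stopped moving early in mammalian history. Their copies now lie as worn fragments in introns and between genes, where some are known to act as enhancers or to be read through as part of host transcripts. BovB is an RTE lineage known for its patchy spread across vertebrates, and it remained active in some mammals. A read counted on such a model therefore need not come from an element's own promoter.

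Levels are TPM, reads per model length scaled to a total of 1000000 over the models of a file. For dog and horse, reads were rebuilt from TPM and model length, and for bat the estimated counts in the file were used. Transposable element models held 103636 reads in dog, 174757 in horse and 55904 in bat, or 15.2%, 26.2% and 100% of the reads of each file. In dog and horse rRNA models held 84.4% and 72.1% of the reads, and the bat file has no rRNA model. TPM as deposited is therefore set side by side for dog and horse, and element-scaled TPM, in which the element models alone of a file sum to 1000000, is used where bat enters. A count of 0 allows up to 3 reads, which is 0.00289% of the element reads in dog, 0.00172% in horse and 0.00537% in bat.

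The old families were a small part of the element RNA in the 3 testes. In dog 6 of 28 members had a read, together 14.7 reads (95% Poisson interval 8.14 to 24.3), where 39.1% of all element models had one. In horse 10 of 29 members had a read, together 435 reads (395 to 478), against 58.8% of all element models. These were 0.0141% of the element reads in dog (exact 95% interval 0.00785 to 0.0235%) and 0.249% in horse (0.226 to 0.274%). Without RTE-1_EC, which alone had 293 reads, the horse share was 0.0816% (0.0688 to 0.0962%). In bat the MIR rows held 11.1 estimated reads (5.58 to 19.8), or 0.0199% (0.00999 to 0.0355%), all on 1 of 2 rows, where 75% of the element models had a read. As a share of element TPM, members held 0.0216% for dog, 0.0422% for bat and 0.275% for horse. Without RTE-1_EC the last value was 0.227%.

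**Figure D1:**
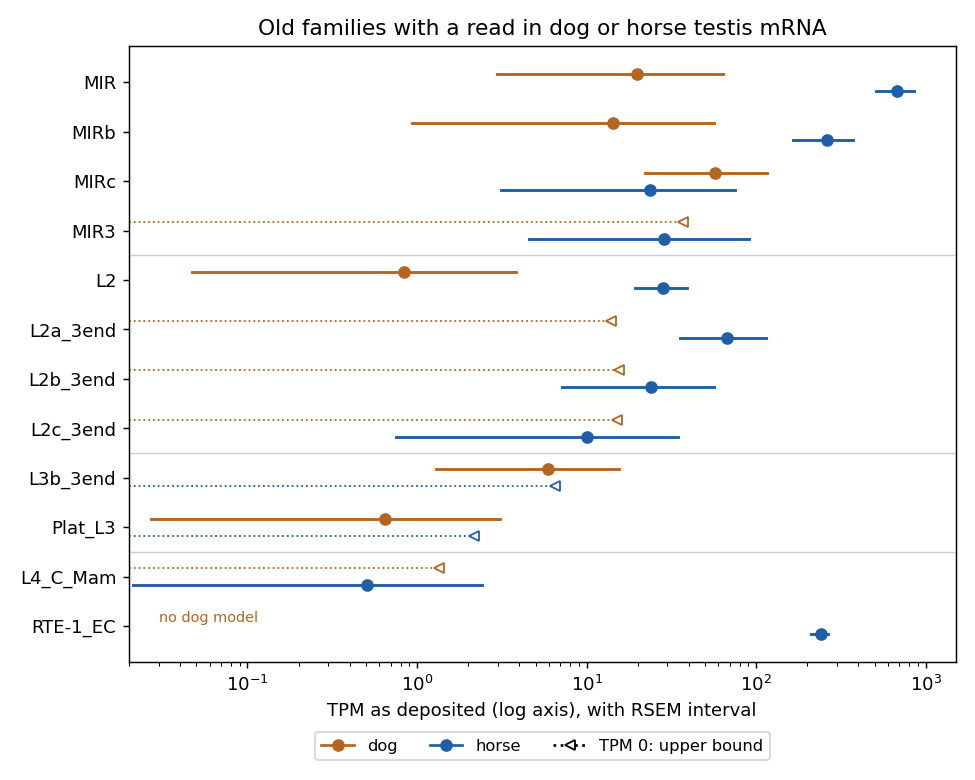
TPM as deposited on a log axis for the 12 members with a read in dog (brown) or horse (blue), with the interval RSEM gives. Open triangles mark the upper bound of a family at TPM 0, and lines part MIR, L2, CR1 and RTE. The dog and horse intervals of MIR, MIRb, L2 and L2a_3end lie apart, with horse higher, while those of MIRc overlap with dog higher.

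MIR and MIRb were higher in horse than in dog, whereas MIRc was not. MIR stood at 19.97 TPM in dog (RSEM interval 2.94 to 63.4, 2.05 reads) and at 674 TPM in horse (512 to 849, 61.4 reads). The horse over dog ratio of 33.8 had an exact counting interval of 9.07 to 275. MIRb stood at 14.3 TPM in dog (0.940 to 56.2, 1.497 reads) and at 261 TPM in horse (164 to 375, 24.3 reads), a ratio of 18.3 (3.86 to 268). For both families the intervals of the species did not overlap, with horse the high library. By share of element reads the ratios were smaller, at 17.8 (4.78 to 145) for MIR and 9.64 (2.03 to 141) for MIRb.

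MIRc, a MIR subfamily with a model as long as that of MIRb, had the higher value in dog. It stood at 57.1 TPM in dog (22.2 to 115, 6.001 reads) and at 23.8 TPM in horse (3.13 to 75.3, 2.22 reads). The ratio of 0.416 had an interval of 0.0476 to 2.22, which spans 1, so the direction was not settled at this depth. MIR3, the shortest MIR model at 208 nt, had no read in dog, where the upper bound was 37.3 TPM. It stood at 28.6 TPM in horse (4.57 to 90.7, 2.01 reads), so that no fold can be given.

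The makeup of the MIR reads is given here as shares of each library's MIR reads. MIRc took 62.9% of the 9.55 MIR reads in dog (exact 95% interval 27.8 to 90.0%), but 2.47% of the 89.9 MIR reads in horse (0.351 to 8.17%). MIR itself took 21.4% in dog (2.81 to 58.0%) and 68.2% in horse (57.6 to 77.7%). MIRb took 15.7% in dog (1.15 to 52.0%) and 27.1% in horse (18.2 to 37.5%). The MIRc intervals lie apart, while those of MIR and of MIRb overlap. Within horse MIR was 2.59 times MIRb (1.59 to 4.32), and MIRb was 10.96 times MIRc (2.88 to 82.1). Within dog MIRc was 2.86 times MIR with an interval of 0.517 to 28.01, so the order of the dog MIR models was not settled. MIR models are alike in sequence and RSEM divides a read among models it fits, so single MIR subfamilies are less certain than their sum.

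Summed over its 4 models, MIR reached 91.3 TPM in dog and 988 TPM in horse, a ratio of 10.8 (5.54 to 23.8). As shares of element reads the same sums were 5.59 times apart (2.86 to 12.3). All 602 element families named alike in both files summed to 8028 TPM in dog and 52911 TPM in horse, a ratio of 6.59, which lies within the MIR interval. The MIR ratio as a sum was therefore not separated from that of the shared families as a whole.

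L2, the autonomous partner of MIR, was seen on all 4 of its models in horse and on 1 of 4 in dog. The full-length L2 model of 3082 nt stood at 0.84 TPM in dog (0.0468 to 3.85, 1.11 reads) and at 28.4 TPM in horse (19.2 to 39.0, 33.2 reads). The ratio of 33.8 had an interval of 6.05 to 1017, wide because dog had about 1 read. By share of element reads it was 17.8 (3.18 to 535). The models of the 3-prime end had no read in dog, with upper bounds of 14.0 TPM for L2a_3end, 15.6 for L2b_3end and 15.2 for L2c_3end. In horse L2a_3end stood at 67.8 TPM (35.4 to 114, 12.8 reads), L2b_3end at 24.02 (7.20 to 56.5, 4.06 reads) and L2c_3end at 10.1 (0.755 to 34.8, 1.75 reads).

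Against a floor of 3 reads in the dog library, the horse value of L2a_3end was 4.80-fold higher by TPM and 2.53-fold by share of element reads. Folds over the floor leave out counting error in horse and are not lower bounds. For L2b_3end the fold over the floor was 1.52 by TPM and 0.802 by share of element reads. The RSEM intervals of the species overlapped for this model, which leaves its direction unsettled. Summed, the L2 models held 1.11 reads in dog and 51.7 in horse, and 0.84 and 130 TPM. The ratio was 155 by summed TPM, for which no interval is given, since the upper bounds of the 3-prime models in dog exceed the dog sum. By share of element reads it was 27.7 (5.10 to 826), beside 3.08 for all shared families. The dog value rests on about 1 read.

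Within horse the 3-prime part of L2 was above full-length L2 by the counting interval for the L2a model alone. L2a_3end stood 2.39 times above full-length L2 per model length (1.15 to 4.68). The RSEM intervals of these models overlapped, at 35.4 to 114 and 19.2 to 39.0 TPM. The counting interval leaves out how RSEM divides reads among the L2 models. L2 and L2b_3end did not differ beyond counting error, with a ratio of 1.18 (0.423 to 4.53), and neither did L2a_3end and L2b_3end (2.82, 0.873 to 11.8).

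CR1 had few reads, and these were all from dog. Of 15 CR1 models, L3b_3end stood at 5.91 TPM in dog (1.29 to 15.6, 3.01 reads) and Plat_L3 at 0.65 TPM (0.0269 to 3.07, 0.997 reads). None of the 15 models had a read in horse, where the upper bounds were 6.49 TPM for L3b_3end and 2.18 for Plat_L3. The intervals of the species overlapped for both, and with 3 reads or fewer against none no fold can be given. Neither L3 nor CR1_Mam had a read, nor did any of the 12 models named X1_LINE to X8_LINE, of which 11 are filed as CR1 and X3_LINE as RTE-BovB.

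RTE held the member with the most reads in horse and had no read in dog. RTE-1_EC, filed as RTE-BovB with a model of 3208 nt, stood at 240 TPM (212 to 266, 293 reads), and the dog file has no model of this name. It took 67.2% of the member reads in horse (62.6 to 71.6%) and was in place 57 by reads among 439 element models with reads. Per model length it was in place 119, level with MIRb: the TPM ratio of MIRb to RTE-1_EC was 1.08 (0.686 to 1.64). MIR was 2.80 times RTE-1_EC (2.09 to 3.70), and RTE-1_EC was 8.48 times L2 (5.91 to 12.5). The other 5 RTE models, shared by both files, had no read in dog and 0.997 reads in horse, on L4_C_Mam at 0.51 TPM (0.0212 to 2.42). L4_A_Mam, L4_B_Mam, L5 and X3_LINE had none in either species.

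**Figure D2:**
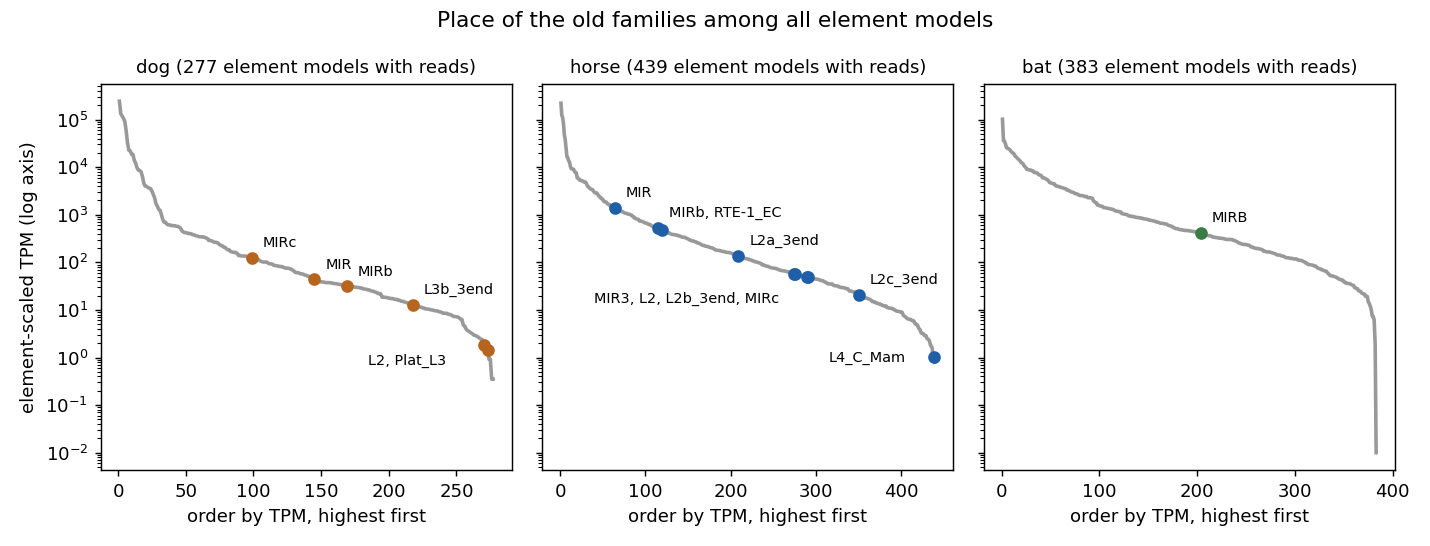
Element models with reads in dog, horse and bat, ordered by TPM from the highest, with the level as element-scaled TPM on a log axis. Points are the old families. MIR is in place 64 of 439 in horse, MIRc in place 99 of 277 in dog and MIRB in place 204 of 383 in bat, and places are not compared between lists of different length.

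The members' places describe each file alone, since the lists differ in length and in models and the dog places rest on few reads. By TPM, MIR was in place 64 and MIRb in place 115 of 439 models with reads in horse. MIRc, with 6.001 reads, was the leading member in dog, in place 99 of 277. Most of the element signal lay on other models. SINEs of the SINE/tRNA classes took 76.5% of element TPM in dog and 71.4% in horse. L1 models whose names start with L1_C or L1- took 68.8% and 57.9% of element reads.

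Counted over families, most of the old families had no read, and those with reads leaned towards horse with 3 exceptions. Of the 28 shared members, 6 had a read in dog, where 30.1% of the 602 shared element families had one, and 9 had a read in horse, against 49.5%. Reads were found in both species for 4 members, in horse alone for 5, in dog alone for 2 and in neither for 17. Of all shared families, 1.5% had a read in dog and none in horse. TPM was higher in horse for 8 of the 11 with a read, where 95.1% of the 307 shared element families with reads were higher in horse. It was higher in dog for 3, L3b_3end, Plat_L3 and MIRc, against 4.89% of all families. At least 2-fold higher in horse were 4 members, MIR, MIRb, L2 and L2a_3end, against 62.5% of all families. The same 4 members had RSEM intervals that lay apart, a description added after seeing the data, against 46.3% of all families. No member had intervals apart in the other direction (0.651% of all families), and MIRc alone was at least 2-fold higher in dog (0.977%). These shares rest on few reads per member, and no test of the difference from other families was possible with 1 library per species.

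By the size of the ratio the members lay at both ends of the range, but the ratios there rest on few reads. In dog MIR had 2.05 reads and L2 had 1.11, and the MIRc interval of 0.0476 to 2.22 spans 1. MIR and L2, both with a log2 ratio of 5.08, stood in places 3 and 4 from the highest among the 307 families. Families at 0 in dog were placed by their fold over the floor of 3 reads. Those with fewer dog reads than that floor, such as MIR and L2, were placed by their own reads. A family with about 1 dog read could thus stand above a family with none. MER2, with 82.3 reads in horse and none in dog, was in place 5, below L2. Places near the top therefore depend on this rule. MIRb, at 4.19, was in place 19, and MIRc, at -1.26, in place 305. Over the 6 members that had a fold the median log2 ratio was 3.23, beside 2.31 over the 222 shared families that had one. Over all 11 the median was 0.00 beside 1.75 over all 307, since 5 members with 3 reads or fewer against none were set at a log2 ratio of 0.

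**Figure D3:**
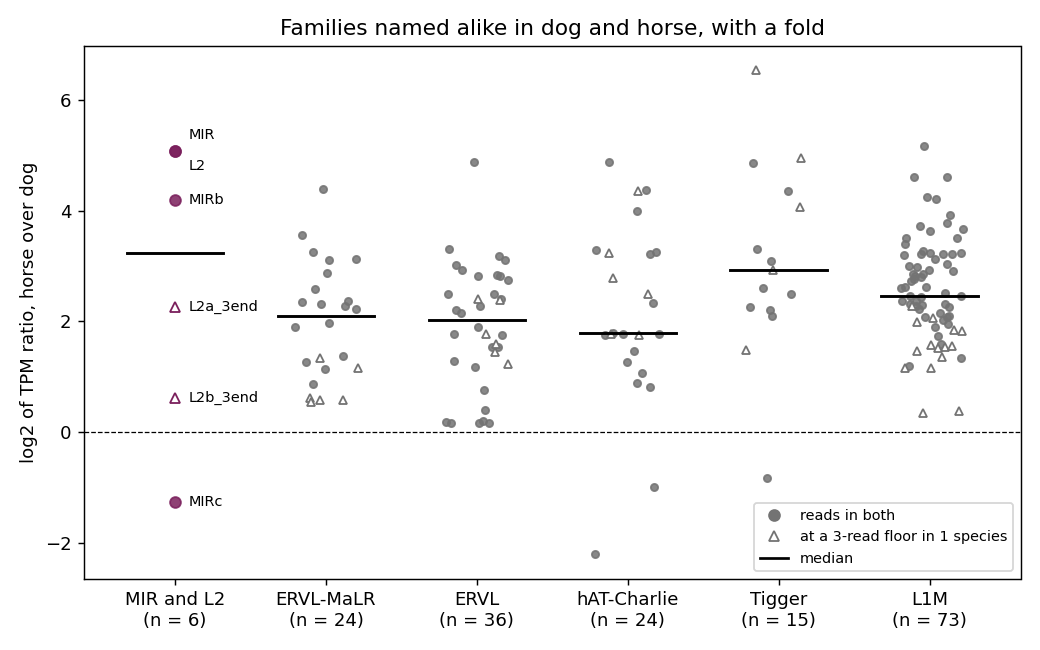
Log2 of the horse over dog TPM ratio for families named alike in both files, without those that have 3 reads or fewer against none. Filled points had reads in both species, open triangles are placed at a floor of 3 reads in 1 species, and bars are medians. MIR and L2 at 5.08 lie above every MaLR and ERVL family, but below MER44C of Tigger at 6.53 and L1MA4A_3end of L1M at 5.16. They are placed by their own dog reads, fewer than 3 each, so their height against the triangles depends on that rule. MIRc at -1.26 lies below 0.

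Other repeats that dog and horse hold in common were detected as follows. Reads were found in either species for 28 of 34 MaLR families, a group of old LTR elements, and for 58 of 100 families of ERVL, the retrovirus-like LTR elements. They were found for 35 of 66 hAT-Charlie and 24 of 39 Tigger families, which are DNA transposons, and for 82 of 89 L1M families, the older part of L1. All of the 28 MaLR and 82 L1M families, 56 of 58 ERVL, 31 of 35 Charlie and 21 of 24 Tigger families with reads were higher in horse by TPM. Among families with a fold, the median log2 ratio was 2.10 for MaLR, 2.02 for ERVL, 1.78 for Charlie, 2.92 for Tigger and 2.45 for L1M. The horse over dog ratio of summed TPM was 6.85 for MaLR, 5.12 for ERVL, 6.29 for Charlie, 8.17 for Tigger and 6.45 for L1M, beside 11.3 for the shared old families. By share of element reads this ratio was 3.32 for MaLR, 2.74 for ERVL, 0.970 for Charlie, 5.06 for Tigger and 3.37 for L1M, beside 5.77 for the shared old families. The old families are not ranked above these classes, since their dog sum rests on 14.7 reads. Their MIR part alone, 10.8 by TPM, had an interval of 5.54 to 23.8. It holds the TPM ratios of MaLR, Charlie, Tigger and L1M, but not that of ERVL. Of 457 Charlie reads in dog, Charlie9 held 184 and Charlie10 held 146.

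Bat allowed a comparison of MIR and MIRb alone, by element-scaled TPM. The MIR row of bat, of 260 nt, had no read, with an upper bound of 192 element-scaled TPM. MIR stood at 43.7 element-scaled TPM in dog (6.44 to 139) and at 1367 in horse (1039 to 1721). The horse interval lay above the upper bound of bat, while the dog interval lay wholly under that bound, so dog and bat could not be told apart.

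MIRb, written MIRB in bat, had its lowest value in dog. It stood at 31.2 element-scaled TPM in dog (2.06 to 123), at 422 in bat (205 to 710, 11.1 reads) and at 529 in horse (332 to 761). Horse and bat did not differ beyond counting error (ratio 1.25, 0.593 to 2.82). Bat stood 13.5 times above dog (2.53 to 209) and horse 17.0 times above dog (3.58 to 248). In the low library, dog, MIRb had 1.497 reads. Bat has no row named MIRc or MIR3, so RSEM divided MIR reads among other models there than in dog and horse. The intervals of single-model ratios to bat do not cover this.

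Summed MIR rows stood at 199.9 element-scaled TPM in dog, 422 in bat and 2002 in horse. Horse was 4.74 times above bat (2.54 to 9.79), and bat 2.11 times above dog with an interval of 0.809 to 5.63. The dog and horse sums hold 4 models and the bat sum 2, since the bat rule took in only MIR and MIRB. A further bat row, PVAM_R8.MIRB of 171 nt, has MIRB in the second part of its name and stood at 879 element-scaled TPM (433 to 1364, 14.0 reads). With it the bat sum was 1301, 6.51 times dog (2.99 to 15.5), and horse was 1.54 times bat (0.979 to 2.50). Whether horse lay above bat thus depended on that row, and the row was added after seeing the data.

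**Figure D4:**
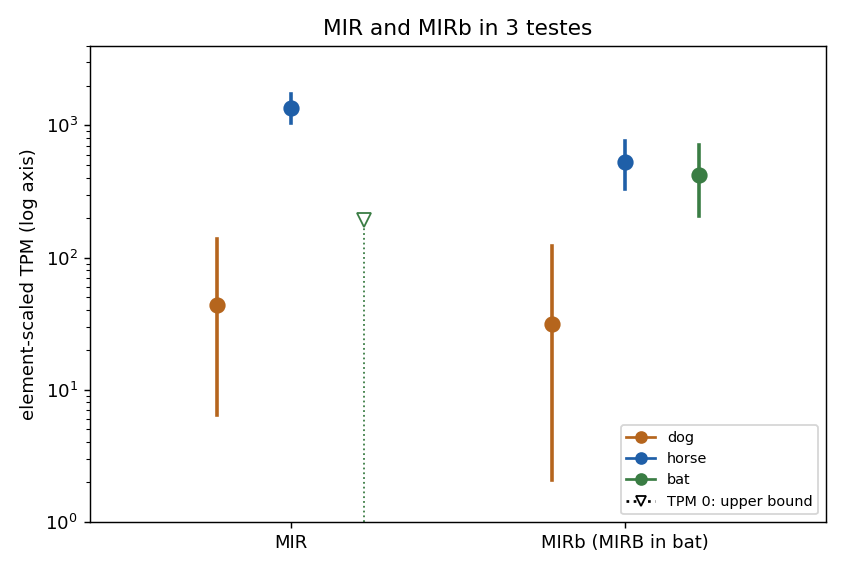
Element-scaled TPM, on a log axis, for MIR and MIRb in dog, horse and bat, with the interval RSEM gives. The open triangle is the upper bound of 192 for MIR in bat, where TPM was 0, and the MIRb intervals of horse and bat overlap while dog lies lower.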

How the data were processed

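The mRNA libraries of dog, horse and bat testis were used, 1 per species. Per the submitters' processing notes, Bowtie and RSEM were used, and CanFam3.1 is named for every sample; versions, trimming, settings and the origin of the repeat models are not stated there. Per the file headers, the authors deposited TPM per repeat model with interval bounds, and for bat also expected counts. TPM sums to 1000000 in each file over different sets of models.

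Reads were rebuilt for dog and horse as TPM times model length minus 24 nt, over the value of 1 read (the median of values within 1% of the commonest low value). In bat this gave the deposited expected counts to within 0.0614% for 269 models of at least 10 reads. Of low models (under 20.5 reads), 54.2% in dog and 51.6% in horse lay within 0.05 of a whole number. The deposited upper bound of models at 0 corresponded to 2.97 reads in dog, 2.97 in horse and 2.96 in bat. TPM has 2 decimals, which limits the precision of low values on long models.

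Element models exclude rRNA, tRNA, other structural RNA with 7SLRNA, satellites, simple repeats and low complexity. Intervals were exact at 95% (Poisson, Clopper-Pearson, and conditional binomial for ratios), computed on fractional reads with scipy 1.17.1. For sums of MIR models, of 171 to 268 nt, they were scaled from the reads, which is approximate. Reads carry no molecular identifiers. The rebuilding was tested on simulated data. The members and the lists were chosen with earlier results of these data known. The naming rule took every member with at least 10 reads in dog or horse, the highest of each class and species, every member with at least 3 reads in 1 species and none in the other, and each bat MIR row; the remaining members with a read are named too. Alternatives changed the scale, filter, pseudocount, length offset and rows. The small RNA files were not used, since no model sequence was at hand to place small RNAs on these families.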

Additional observations from a re-analysis of the deposited data

How the results depend on the processing

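Depth is the main limit: no member had 10 reads in dog and 5 had in horse. The counts of members higher in horse (8) and at least 2-fold higher (4) were the same by TPM rescaled to elements or without rRNA. They were also the same by share of element reads, with other length offsets and without a filter. Dropping the filter could not move them, since a family without reads is higher in neither species. Length offsets enter these counts only through the 3-read floor. With at least 10 reads in both species together, 4 members were higher in horse. These 4 passed that filter through horse alone, with 12.8 to 61.4 reads there and 0 to 2.05 in dog. MIRc, with 6.001 reads in dog and 2.22 in horse, fell out. The count and the median under that filter are therefore no support for a lean to horse. The median log2 ratio of 0.00 moved to 4.64 with that filter, 3.996 as log2(TPM + 1), 1.77 as log2(TPM + 10) and, added after seeing the data, 3.23 for members with a fold. No median can be given without a filter, since 17 members had no read. Share of element reads shifted the log2 ratio of the 172 shared families with reads in both species by a median of -0.93, rescaling to elements shifted it by -0.11, and the summed L2 ratio fell from 155 to 27.7. Without MIRc, the dog share of element TPM was 0.00911%. With MIR rows alone the horse shares were 0.0515% of reads and 0.200% of TPM, and without RTE-1_EC 0.0816% and 0.227%. Without MIRB the bat shares were 0% of both. With every bat row holding MIR they were 0.0449% of reads and 0.130% of TPM. With the MIR rows of the rule and the BovB row, but not PVAM_R8.MIRB, the read share was 0.0969%. These moves follow from which models were summed; the cause of the others was not tested. Of 67 alternative values, 49 stayed within the main interval or within 1.5 times the main count, and none reversed. Some of the 49 could not have moved, such as the counts without a filter, so this number is not a measure of stability. No paired analysis was possible because each species had 1 library.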

Other observations

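Rows outside the families above include their nearest relatives in the same files, with values and no test. In horse, SINE2-1_EC is the only model filed as SINE/tRNA-RTE, a class named for a tRNA-derived head and an RTE-type tail. It stood at 4421 TPM (RSEM interval 4047 to 4719, 647 reads), beside 240 TPM for RTE-1_EC. In bat the single BovB row, BOVBA-1_EF of 3195 nt, held 43.0 estimated reads (95% Poisson interval 31.1 to 57.9) at 126 TPM, and RTE-1_EC of horse stood at 488 TPM when the horse file is scaled to its elements, as the bat file is. The bat and horse BovB rows are different models, so the values are set side by side only.

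Other old classes had few reads. AmnSINE2, one of 2 models of the SINE/Deu class, had 4.01 reads in dog (1.09 to 10.2) at 27.9 TPM, and neither model had a read in horse. The Dong-R4 and Penelope models had no read in either species. Of 15 Gypsy models, MamGyp-int alone was detected, with 2.99 reads in horse and 0 in dog. With L3b_3end and Plat_L3, AmnSINE2 was thus among the 9 of 602 shared families (1.5%) with a read in dog and none in horse. Families of other classes, such as Charlie2b, MER58C, LTR16D and LTR40c, were among them too. The RSEM intervals of AmnSINE2 overlapped, at 8.03 to 64.4 TPM in dog and up to 23.3 TPM in horse, so its direction was not settled.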
